A study of Rattus norvegicus with 2 samples.

Results

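Remote lone RYBP peaks are places in the genome of newborn rat cardiomyocytes (CMs) where RYBP was called without any other RYBP peak in the wider neighbourhood. They were taken from the peak list of 1 RYBP ChIP sample, called by the authors against 1 input sample, which is the same kind of chromatin sequenced without the antibody. The peaks were chosen by position and width alone: a peak was counted as remote and lone when it was under 5 kb wide and the gaps to the previous and to the next peak on its chromosome were both at least 100 kb. Of 41598 peaks, 2118 met these conditions, 5.09% of the list (Wilson 95% interval 4.88 to 5.31). Another 6 peaks had gaps of this size but were at least 5 kb wide. The 42 peaks at the chromosome ends were left out of the remote lone peaks and counted among the other peaks. Both samples came from wild-type hearts labelled as control, and the cells were isolated and then cultured. The sources used here give no number of animals. The cell type could not be checked from a list of regions, and the control of the calling is input chromatin, not cells that lack RYBP.

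RYBP is a zinc finger protein that binds the RING1 proteins and is a subunit of non-canonical Polycomb repressive complex 1. This complex adds ubiquitin to histone H2A and is best known for holding developmental genes silent, often at CpG-rich promoters. RYBP has also been described at active genes and enhancers. Enhancers can act on a gene from far away, and super-enhancers (SEs) are dense groups of them. The remote lone peaks are solitary among RYBP peaks only, and no enhancer data were used here, so their relation to SEs was not tested. The question addressed here is how these solitary deposits compare in strength and extent with the rest. No gene is assigned to any peak, because no annotation of the build of the list (Rnor_6.0) was used here.

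All other columns of the list come from the same calling, so every comparison below is a description without a test. Medians are given with exact 95% order-statistic intervals and shares with Wilson 95% intervals. These cover counting error only and treat peaks as independent, and with 1 ChIP sample there is no replicate error. Read totals were not analysed here.

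Remote lone peaks were stronger than the other peaks. Their median fold enrichment, the ratio of ChIP signal to the expected local background, was 4.39 (95% interval 4.27 to 4.56), with quartiles of 3.25 and 6.20. The other 39480 peaks had a median of 3.30 (3.29 to 3.31), with quartiles of 2.89 and 4.46. The median −log10 q (q being the multiple-testing adjusted p-value) was 8.63 (7.64 to 9.72) in remote lone peaks and 2.99 (2.96 to 3.02) in the others. The ranges overlapped over most of their length, since fold enrichment ran from 1.498 to 26.9 in remote lone peaks and from 1.496 to 23.6 in the others.

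The difference lay at both ends of the significance scale. In all 41598 peaks, 25.3% had −log10 q of at least 10. Among remote lone peaks it was 991 peaks, 46.8% (44.7 to 48.9), and among the others 24.2% (23.7 to 24.6). In peaks under 5 kb whose nearest other peak lay at 50 to 100 kb it was 49.7% (47.7 to 51.8). Those peaks had a median −log10 q of 9.71 (8.36 to 10.6), so high significance was not particular to remote lone peaks. Very significant peaks, with −log10 q of at least 50, made up 1.67% of the list, 4.30% (3.51 to 5.25) of remote lone peaks and 1.52% (1.41 to 1.65) of the others. At the weak end, 28.8% of the list had −log10 q under 2. This share was 14.9% (13.5 to 16.5) in remote lone peaks and 29.5% (29.1 to 29.97) in the others.

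On a logarithmic axis the remote lone peaks formed 2 groups of nearly equal height. The lower mode held 279 of them, 13.2%, at −log10 q between 1.58 and 2.51, and the upper mode held 312, 14.7%, between 25.1 and 39.8. Between them the count fell to 186 at 6.31 to 10.0. In the other peaks the lower mode was the larger, with 25.7% of the peaks at 1.58 to 2.51, and the upper one held 7.95% at 15.8 to 25.1. A solitary position was thus found for weak calls as well as for strong ones.

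**Figure D1:**
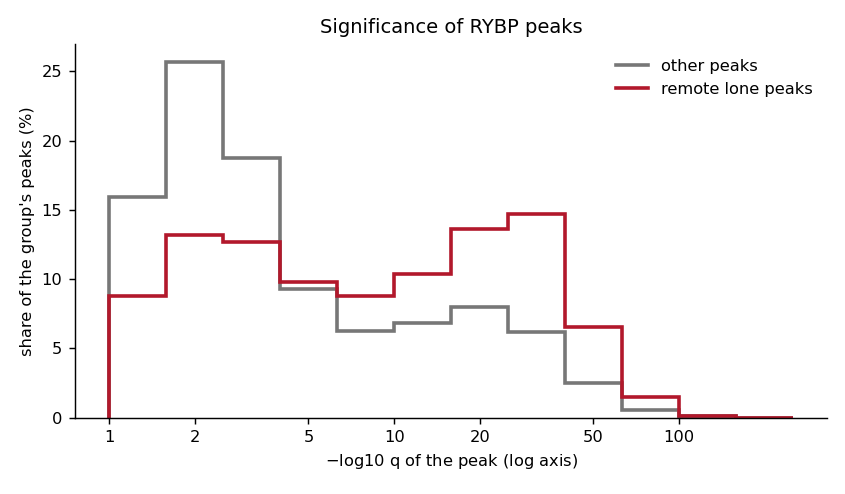
Share of peaks (y axis, percent of each group) in classes of −log10 q (x axis, log scale) for 2118 remote lone peaks in red and 39480 other peaks in grey. The red line has modes of 13.2% and 14.7% on either side of a trough of 8.78%, whereas the grey line is highest at 25.7% in the lower mode.

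The width of the peaks was compared next. Remote lone peaks had a median width of 786 bp (752 to 823), against 730 bp (723 to 736) in the others and 721 bp (715 to 727) in the others under 5 kb. Narrow peaks were equally common, with 30.8% (28.9 to 32.8) of remote lone peaks and 30.9% (30.4 to 31.4) of the others under 500 bp. The narrowest width in the list, 286 bp, accounted for 5.10% (4.24 to 6.12) and 4.20% (4.01 to 4.40), respectively. Peaks of 1200 bp to under 3 kb were more frequent among remote lone peaks, at 29.1% (27.2 to 31.1) against 21.8% (21.4 to 22.2). From 3 kb to under 5 kb it was the reverse, with 1.98% of remote lone peaks and 3.24% of the others. Together the 2118 peaks covered 2.13 Mb, 4.87% of the 43.8 Mb covered by the list.

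Width and fold enrichment were linked more closely in remote lone peaks than in the others. The Spearman rho between them was 0.65 across the 2118 remote lone peaks and 0.37 across the 39480 others. Among peaks of at least 500 bp the values were closer, 0.52 across 1465 and 0.39 across 27282 peaks. These are descriptions across peaks of 1 library, and MACS2 averages the fold over the region, so both values share the same calling. Wide and weak peaks were rarer among remote lone peaks than among peaks with a neighbour within 10 kb or at 10 to 100 kb. Of 658 remote lone peaks of at least 1200 bp, 57 had a fold enrichment under 4, which is 8.66% (6.75 to 11.1). In peaks of 1200 bp to under 5 kb with the nearest other peak at 10 to 100 kb it was 18.5% (17.1 to 20.1), and with another peak within 10 kb it was 55.9% (54.8 to 57.0). These limits of width and fold were chosen after the plot of width and fold was seen.

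**Figure D2:**
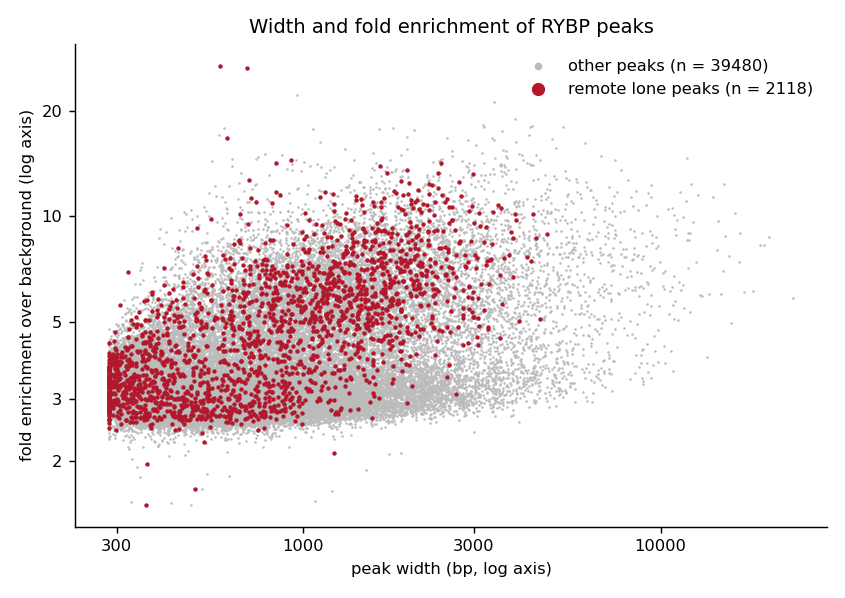
Fold enrichment over background (y axis, log scale) against peak width in bp (x axis, log scale), each point 1 peak, with 2118 remote lone peaks in red over 39480 other peaks in grey. Red points are sparse in the lower right, where wide peaks of low fold lie, and the pair of red points at the top left are narrow peaks with a fold enrichment of 26.9 and 26.5.

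At equal width the remote lone peaks were the stronger ones, by little in narrow peaks and by more in wide ones. Among peaks of 286 bp the median fold enrichment was 3.11 (3.04 to 3.24) in remote lone peaks and 3.02 (2.997 to 3.04) in the others, a ratio of 1.03. At 500 bp to under 800 bp it was 3.83 (3.58 to 4.11) against 3.06 (3.04 to 3.07). At 1200 bp to under 2 kb it was 6.05 (5.85 to 6.30) against 3.998 (3.91 to 4.07), a ratio of 1.51. The ratio was 1.54 from 2 to 3 kb and 1.43 from 3 to 5 kb. The intervals were apart in each of the 8 width classes. Most of this contrast was with peaks that have a close neighbour. Set against peaks under 5 kb whose nearest other peak lay at 10 to 100 kb, the ratio of medians was between 1.003 and 1.12 over the same classes, and the intervals were apart in 4 of the 8. Set against those with the nearest other peak at 50 to 100 kb, it was between 0.913 and 1.03, and the intervals were apart in 0 of the 8. The share with −log10 q of at least 10 was lower in remote lone peaks than in these at 1200 bp to under 2 kb. It was 79.2% (75.2 to 82.7) against 88.9% (85.7 to 91.5), and in the other width classes the intervals of this share overlapped.

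**Figure D3:**
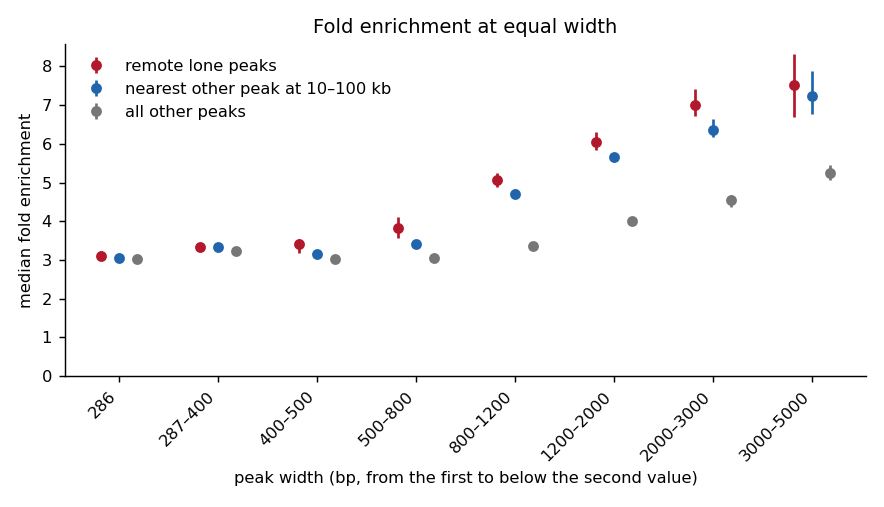
Median fold enrichment (y axis) in 8 classes of peak width in bp (x axis) for remote lone peaks in red, peaks under 5 kb with the nearest other peak at 10 to 100 kb in blue and all other peaks in grey, with exact 95% intervals of the median as bars. Red and blue points run close together, and both leave the grey points from 500 bp upward.

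Distance itself was then followed over the whole list, among peaks under 5 kb wide. The median fold enrichment was 3.16 (3.15 to 3.17) with another peak closer than 3 kb, 3.52 (3.47 to 3.56) at 10 to 25 kb and 4.37 (4.22 to 4.55) at 50 to 100 kb. Beyond this distance it hardly moved. It was 4.36 (4.19 to 4.57) at 100 to 200 kb, 4.35 (4.08 to 4.66) at 200 to 500 kb, 4.50 (4.28 to 4.90) at 500 to 1000 kb and 5.02 (4.24 to 5.41) in the 87 peaks with nothing within 1000 kb. The intervals of these 5 classes from 50 kb onward overlapped, so the limit of 100 kb marks no step in strength. The share of weak peaks was lowest beyond 500 kb, with intervals apart from that at 50 to 100 kb but not from that at 200 to 500 kb. It was 17.0% (15.5 to 18.6) with −log10 q under 2 at 50 to 100 kb, 16.3% (14.3 to 18.5) at 100 to 200 kb, 15.2% (12.7 to 18.2) at 200 to 500 kb, 9.23% (5.92 to 14.1) at 500 to 1000 kb and 6.90% (3.20 to 14.2) beyond. Within the remote lone peaks the Spearman rho between the smaller gap and fold enrichment was 0.05, over 2118 peaks.

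**Figure D4:**
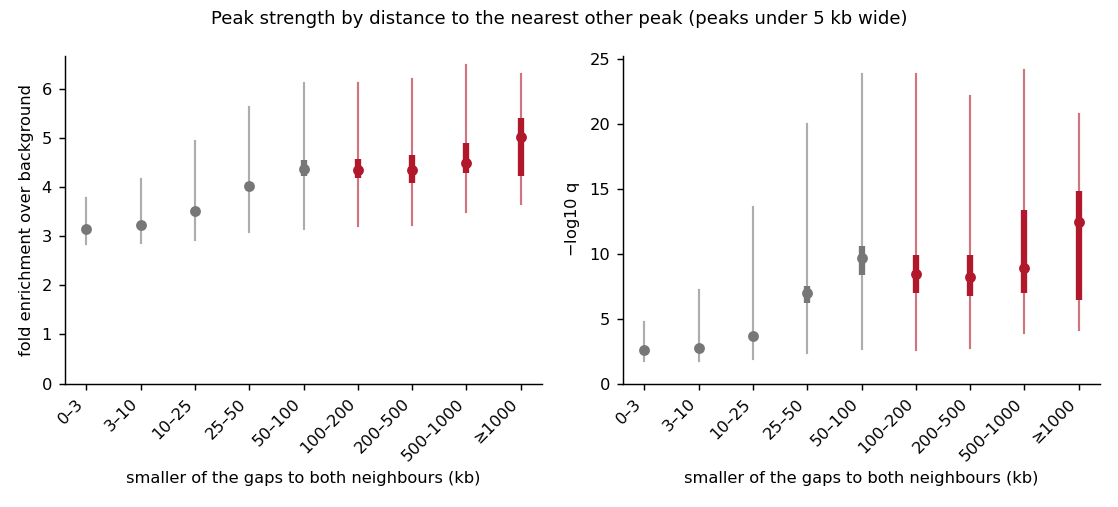
Median fold enrichment (left) and −log10 q (right) of peaks under 5 kb wide, by the smaller of their gaps to both neighbours in kb (x axis), with thick bars for the exact 95% interval of the median and thin bars for the quartiles. Red classes are the remote lone peaks. The medians of fold climb from 3.16 to 4.37 below 100 kb and stay between 4.35 and 5.02 above it.

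The p-values at equal fold were also compared, because at a given fold the −log10 p from MACS2 depends on the number of reads expected. In 9 classes of fold enrichment with enough members for an interval, the intervals of the median −log10 p overlapped in all 9. In the 8 classes with at least 70 remote lone peaks the ratio of the medians was between 0.984 and 1.04. At a fold of 6 to 8, for example, the median −log10 p was 30.1 (29.4 to 31.2) in remote lone peaks and 29.0 (28.6 to 29.5) in the others. Remote lone peaks made up 2.60% (2.34 to 2.89) of the peaks with a fold of 2.5 to 3 and 12.9% (10.4 to 15.9) of those with a fold of 10 to 15. Weak remote lone peaks were also narrower than the others at the same fold. At a fold of 3 to 3.5 their median width was 408 bp (380 to 435) against 628 bp (616 to 641), whereas at 5 to 6 it was 1090 bp (1012 to 1162) against 1096 bp (1066 to 1135).

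The 2 highest fold enrichments of the whole list belonged to remote lone peaks. A peak of 583 bp at chr6:64738247-64738829 had a fold enrichment of 26.9 and −log10 q of 123, with gaps of 439 kb and 580 kb to its neighbours. A peak of 696 bp at chr3:139001621-139002316 had a fold enrichment of 26.5 and −log10 q of 120, with gaps of 231 kb and 331 kb. The third highest fold of the list was 23.6, in a peak of 4446 bp that was not solitary. The only other remote lone peak with a fold of at least 15, chr15:5129593-5130201, was 609 bp wide with a fold of 16.8 and −log10 q of 67.0; it was singled out after its value was seen. These 3 were narrow, whereas the 38 other peaks with such a fold had a median width of 3166 bp (1955 to 3616). In the whole list, 8 peaks under 1 kb reached a fold of 15, the 3 named here and 5 others.

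Other strong remote lone peaks were mostly wider than these 3. A fold enrichment of at least 10 was found in 1.47% of the list and in 77 remote lone peaks, 3.64% (2.92 to 4.52), with a median width of 1924 bp, against 2306 bp in the other 536 peaks with such a fold. By −log10 q the third was chr6:80333692-80335636, 1945 bp wide, with a fold of 13.6 and −log10 q of 98.3. The fourth was chr8:51858179-51861152, 2974 bp wide, with a fold of 13.2 and −log10 q of 98.0. The peak chr9:111326913-111328878 followed with a fold of 11.6 and −log10 q of 91.9, and chr15:70731352-70733065 with a fold of 13.3 and −log10 q of 88.4. The remaining 4 of the first 10 lay at chr1:241731000-241733021, chr18:52916108-52918346, chr7:69212799-69214245 and chr3:152273003-152274037. Their fold enrichments were 10.6, 12.4, 11.2 and 9.73, in this order. None of the remote lone peaks was among the 10 peaks of highest −log10 q in the list. Of the first 100 by −log10 q, 11 were remote lone peaks, 11.0% (6.25 to 18.6). Of the first 1000 it was 123, 12.3% (10.4 to 14.5), beside a share of 5.09% in the list. By fold enrichment, 3 of the first 50 were remote lone peaks, 6.0% (2.06 to 16.2), and 7 of the first 100, 7.0% (3.43 to 13.8). These intervals include the share in the list. Of the first 1000 by fold it was 117, 11.7% (9.85 to 13.8).

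At the other end, the 316 remote lone peaks with −log10 q under 2 have a region value of q above 0.01, the threshold named in the methods of the study. The cutoff applied to broad regions is not given in the sources used here. The lowest −log10 q was 1.06, at chr3:54327046-54327474, with a fold of 2.54 over 429 bp. Next were chrX:152410412-152410868, with −log10 q of 1.09 and a fold of 2.60, and chr5:36374922-36375568, with −log10 q of 1.10 and a fold of 2.61. These peaks had no other call within 296 kb, 172 kb and 154 kb, respectively.

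How far from other RYBP the peaks lay was also measured. The median of the smaller gap was 176 kb (170 to 183) and that of the larger gap was 451 kb (430 to 478). In comparison, the median gap between neighbouring peaks of the list was 10.1 kb. No other peak lay within 500 kb of 282 remote lone peaks, 13.3% (11.9 to 14.8), and within 1000 kb of 87, 4.11% (3.34 to 5.04). The gaps of at least 100 kb that bordered remote lone peaks added up to 1598 Mb, 57.7% of the 2768 Mb that the list spans over all chromosomes. All gaps of at least 100 kb in the list added up to 2098 Mb, 75.8% of this span. Assembly gaps were not masked, so a gap is the absence of a call and not of RYBP.

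The most remote peak was chr13:13322598-13325573, with 4.85 Mb on the left and 10.5 Mb on the right without a call. It was 2976 bp wide with a fold enrichment of 5.17. On chromosome 2, the peaks chr2:66036506-66036889 and chr2:74189127-74189440 faced each other across 8.15 Mb. Both were narrow and of low fold, 2.94 and 3.59. The peak chr13:31081095-31081872 had 4.23 Mb and 3.17 Mb around it and a fold of 3.75. The peak chr15:77738356-77739178 had 4.95 Mb and 2.97 Mb around it and a fold of 8.57, over 823 bp. Weak and strong calls were thus both present in the emptiest stretches.

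The widest remote lone peak was chrX:104492479-104497297, with 4819 bp, a fold of 8.91 and 5.10 Mb without a call on its left. It was followed by chr6:119519718-119524324, with 4607 bp and a fold of 5.08, and by chr18:41448840-41453309, with 4470 bp and a fold of 8.65. Just beyond the width limit lay chr9:110327982-110333079 with 5098 bp and a fold of 9.63, chr9:70639963-70645420 with 5458 bp and a fold of 3.82, and chr2:136990962-136996513 with 5552 bp and a fold of 8.44. At the gap limit, the nearest members inside were neighbours on chromosome 2, separated by 100028 bp, with folds of 4.79 and 2.80, and a peak on chromosome 8 at 100104 bp with a fold of 6.26. The nearest peaks outside had a smaller gap of 99976 bp on chromosome 8, 99945 bp on chromosome 2 and 99886 bp on chromosome 12, with folds of 4.22, 3.67 and 2.77.

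The order of remote lone peaks along the chromosomes was also described. They formed 1002 uninterrupted series, of which 517 were a single peak between peaks of other kinds and 28 held 7 or more. The rule builds part of this succession in, since neighbouring members share a gap of at least 100 kb. No expected number of series was computed, so grouping beyond the rule was not tested. The longest series, on chromosome 5 from 79569688 to 100546201, held 21 peaks over 20.98 Mb with a median fold of 5.81, from 2.75 to 10.4. The next, on the X chromosome from 77569638 to 95062348, held 19 peaks over 17.5 Mb with a median fold of 4.40. Members of series of 7 or more had a median fold of 4.82 (4.33 to 5.17) and single ones 4.25 (3.94 to 4.51), and these intervals overlapped. The 2002 other peaks directly next to a remote lone peak had a median fold of 4.16 (4.03 to 4.29), also above the 3.30 of all other peaks.

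The chromosomes differed widely in how many of their peaks were remote and lone. The share was highest on chromosome 2, with 242 peaks, 15.2% (13.5 to 17.1) of its peaks, and on the X chromosome, with 151 peaks, 13.8% (11.9 to 16.0). It was lowest on chromosome 12, with 13 peaks, 0.560% (0.327 to 0.955), and on chromosome 10, with 52 peaks, 1.36% (1.04 to 1.78). Per Mb of span the range was narrower, from 0.247 (0.132 to 0.423) on chromosome 12 to 1.02 (0.818 to 1.25) on chromosome 18. Across the 20 autosomes the number of remote lone peaks per Mb was lower where all peaks were denser, with a Spearman rho of −0.71. The rule builds part of this relation in, since peaks that are denser leave fewer long gaps.

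The higher strength was not a matter of a few chromosomes. The median fold enrichment of remote lone peaks was above that of the other peaks on 21 of 21 chromosomes, and the intervals were apart on 16 of them. The medians ran from 3.86 on chromosome 10 to 5.55 on chromosome 20 for remote lone peaks, and from 3.16 to 3.83 for the others. The smallest ratio was 1.07, on chromosome 15, and the largest was 1.72, on chromosome 20, which had 27 members. For width the direction was not shared, as remote lone peaks had the wider median on 14 chromosomes and the narrower one on 7. The intervals were apart on 3 chromosomes. On chromosome 4 remote lone peaks were wider, at 858 bp (749 to 965) against 689 bp (650 to 717), and also on chromosome 18, at 875 bp (731 to 1128) against 672 bp (636 to 724). On chromosome 10 they were narrower, at 493 bp (372 to 617) against 764 bp (742 to 789).

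The X chromosome was compared with all autosomes pooled and with single ones. Its 151 remote lone peaks had the widest median of the 21 chromosomes, 929 bp (763 to 1150), against 781 bp (745 to 820) on the autosomes, and these intervals overlapped. Their median fold of 3.96 (3.53 to 4.25) lay below that of autosomal remote lone peaks, 4.45 (4.33 to 4.66), but 7 of the 20 autosomes had a still lower median. The share with −log10 q of at least 10 was 29.1% (22.5 to 36.8) on the X and 48.1% (45.9 to 50.4) on the autosomes. Of the 151, 0 reached −log10 q of 50, for which the Wilson upper limit is 2.48% and the limit set by 3 counts is 1.99%. On the autosomes 91 did, 4.63% (3.78 to 5.65), although chromosomes 10, 12 and 13 had 0 as well. Other X peaks were also less often at −log10 q of at least 10, at 16.8% (14.5 to 19.3) against 24.3% (23.9 to 24.8) of the other autosomal peaks. The labels give no sex of the animals.

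**Figure D5:**
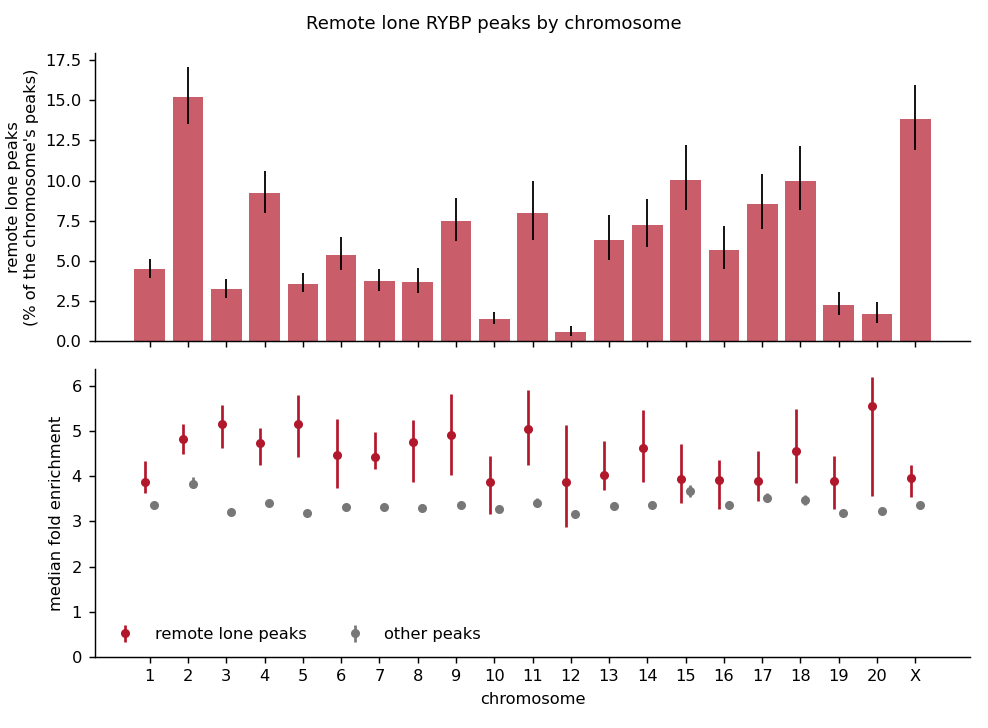
Upper panel, remote lone peaks as a percentage of the peaks of each chromosome, with Wilson 95% intervals. Lower panel, median fold enrichment of remote lone peaks (red) and other peaks (grey) with exact 95% intervals of the median. The bars are highest on chromosome 2 (15.2%) and the X chromosome (13.8%), and red points lie above grey ones on all 21 chromosomes.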

How the data were processed

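RYBP ChIP-seq was performed on CMs from newborn rat hearts, with 1 ChIP sample and 1 input sample per the labels. The authors trimmed reads with Trim Galore, aligned them with Bowtie2 to Rnor_6.0, used Samtools to remove duplicates, and ran MACS2 with the input as control. The deposited broad list gives, as averages over each region, the fold enrichment (a linear ratio), a −log10 p and a −log10 q. The deposited score, the integer part of 10 times −log10 q in 99.98% of the rows, was not analysed. Averaging lowers wide regions with a strong core. The methods state that replicates were merged, but the labels name 1 rat ChIP sample, so whether this list pools libraries is not known.

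Peaks were sorted by chromosome and start, and gaps were taken edge to edge. Coordinates are printed from 1. The members, classes and alternatives were chosen with earlier results of these data known. Named peaks were those with the 10 highest and 3 lowest −log10 q, the 5 largest smaller gaps, the 3 widest and those nearest to each limit. The selection and the median interval were tested on simulated data. No sequence or gene is given, since the tables at hand are of another build. The work used scipy 1.17.1, pandas 2.3.3 and numpy 2.4.6 under Python 3.11.15, with plots from matplotlib 3.10.9.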

Additional observations from a re-analysis of the deposited data

How the results depend on the processing

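The number of remote lone peaks (2118) was 4385 with gaps of at least 50 kb and 925 with gaps of at least 200 kb, which follows from the limit itself. At 200 kb the share with −log10 q under 2 (14.9%) was 13.2%. When peaks with −log10 q under 2 were removed before the gaps were taken, the median width (786 bp) was 892 bp, the median fold enrichment (4.39) was 4.85, the median −log10 q (8.63) was 11.7 and the share with −log10 q of at least 10 (46.8%) was 53.6%. With those under 5 removed these were 1193 bp, 5.75, 19.5 and 76.3%, against 1098 bp, 5.27, 15.7 and 69.7% in the other peaks, so the contrast kept its direction but was smaller. These shifts follow in part from the filter, which removes weak peaks from both groups. The other 35 values, among them those with no width limit, merging within 1 kb or chromosome ends kept, stayed within their intervals or within 1.5 times the count. The restriction to autosomes was chosen after seeing the data, as was the limit of the other peaks to under 5 kb, which changes only the comparison group and is not counted here. No replicate could be left out and no paired analysis was possible because the labels give 1 ChIP sample. Depth was not analysed, so what it limits was not tested.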
